A study of Mus musculus with 8 samples.

Results

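Gata4, Gata6, Sox17, Sox7, Cxcr4, Foxa1, Trh and Prdm1, genes that regulate or mark the early endoderm, were followed across mouse embryonic stem cells labelled Evx1as knockout, cells labelled EVX1 knockout, and wild-type (WT) cells. The 8 genes were found by symbol among the 38610 symbols of the deposited expression table, and each had a value in all 8 libraries. All libraries came from CJ9 cells, an embryonic stem cell line of strain 129S4/SvJae, harvested on day 4 of culture in serum medium from which leukemia inhibitory factor (LIF) had been left out, and so all groups share the strain, the line and the LIF withdrawal. There were 2 WT libraries, 3 of genotype Evx1as KO and 3 of genotype EVX1 KO. CRISPR was the method of knockout, per the series title. How many clones make up a knockout group, and where each edit lies, was not given in the sources used here. As stated, the series set out to find genes whose expression in differentiating cells depends on the knockout. No label ties the replicates to separate cultures, so p-values measure only the spread between these libraries, which may be technical. Values are FPKM, which divide fragments by the length of the transcript and by the mapped total of the library. This is meant to make levels comparable between genes and between libraries. How far it does so here was not tested beyond an alternative scaling of the libraries.

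Definitive endoderm forms in the embryo when epiblast cells pass through the anterior primitive streak under strong Nodal signalling, and it gives rise to the gut, liver, pancreas and lung. Gata4 and Gata6 encode zinc finger factors that act in primitive endoderm, definitive endoderm and heart. Sox17 and Sox7 encode SoxF factors: Sox17 is a core regulator of definitive endoderm, and Sox7 is best known from parietal endoderm and from blood and vessel precursors. Foxa1 encodes a pioneer forkhead factor of endoderm that acts after its relative Foxa2. Cxcr4 encodes the receptor for the chemokine CXCL12 and is a surface marker used to sort definitive endoderm, although mesoderm cells carry it too. Trh encodes thyrotropin-releasing hormone and is expressed in early endoderm cultures, and Prdm1 encodes the repressor BLIMP1, which acts in visceral and definitive endoderm and in primordial germ cells.

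Promoter sequences are shown because Cxcr4 moved with the GATA genes and Trh did not, and because Foxa1 was followed only at very low level. RefSeq windows on GRCm38.p6, running from 250 bases before to 50 bases after the annotated start, held 4 of the 8 genes: Cxcr4, Foxa1, Trh and Prdm1. Capitals mark matches on either strand to the GATA letters (AGATAA or else TGATAA), to the SOX letters (AACAAT or else ACAAAG) and to the FOXA letters (TGTTTAC or else TGTTTGC). The Cxcr4 window lies on the minus strand of chr1:128592250-128592549, that of Foxa1 on the minus strand of chr12:57546062-57546361 and that of Trh on the minus strand of chr6:92244601-92244900.
Cxcr4: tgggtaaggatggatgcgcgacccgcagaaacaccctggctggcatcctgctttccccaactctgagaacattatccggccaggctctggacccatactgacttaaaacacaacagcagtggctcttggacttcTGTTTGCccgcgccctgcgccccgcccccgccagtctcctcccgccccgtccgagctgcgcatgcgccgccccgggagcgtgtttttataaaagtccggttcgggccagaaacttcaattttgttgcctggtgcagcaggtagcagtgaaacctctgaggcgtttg
Foxa1: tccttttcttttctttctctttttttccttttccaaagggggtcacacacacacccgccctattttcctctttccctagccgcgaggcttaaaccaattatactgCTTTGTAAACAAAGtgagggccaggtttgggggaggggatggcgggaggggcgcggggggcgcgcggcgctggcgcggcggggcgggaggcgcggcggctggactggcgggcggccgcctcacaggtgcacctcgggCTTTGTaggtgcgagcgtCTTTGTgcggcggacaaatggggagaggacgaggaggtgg
Trh: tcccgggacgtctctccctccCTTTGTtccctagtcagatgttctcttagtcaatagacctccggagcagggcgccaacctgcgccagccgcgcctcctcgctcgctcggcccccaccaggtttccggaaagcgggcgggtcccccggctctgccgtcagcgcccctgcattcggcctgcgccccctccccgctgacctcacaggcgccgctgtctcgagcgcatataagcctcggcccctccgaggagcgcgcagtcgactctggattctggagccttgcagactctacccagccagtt
None of the 4 windows held the GATA letters, which 18.6% of all 32851 promoter windows of this length hold. Cxcr4 held the FOXA letters TGTTTGC starting 116 bases before the start. Foxa1 held the SOX letters 4 times and the FOXA letters once, the latter overlapping a pair of the SOX matches. Trh held the SOX letters once, 229 bases before the start, and Prdm1 (minus strand of chr10:44458699-44458998) held the FOXA letters 231 and 163 bases before the start. FOXA letters stand in 8.48% of all windows and SOX letters in 27.0%. A match is a description of the letters and not of binding, and the absence of a match says only that these letters are not in the window.

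Facts of the whole data set that bear on the 8 genes are few. Summed FPKM lay between 531523 and 587798 per library, and 12244 to 12442 genes reached 1 FPKM. Read counts were not used here, and depth relative to WT replicate 1, read from the steps between low values, lay between 0.863 and 1.19. Of 15 pluripotency genes, 14 were at or above 1 FPKM in both WT libraries, 13 in all Evx1as KO and 12 in all EVX1 KO libraries. So low a bar does not check the stem cell label, as 14 of 15 Nodal pathway genes met it in WT too. Evx1as (listed as 5730457N03Rik) stood at 5.36 and 6.75 FPKM in WT, at 0.0549, 0.104 and 0.0485 in the Evx1as KO libraries, and at 5.01, 8.81 and 7.39 in libraries with the EVX1 KO label. Evx1 itself stood at 22.0 and 31.2 in WT, at 2.45, 3.84 and 0.541 in the Evx1as KO libraries, and at 26.3, 20.8 and 31.7 in libraries with the EVX1 KO label. The Evx1 transcript thus does not check the label EVX1 KO, and every statement on these libraries below refers to the label. Genes of chromosome 14 were low as a block in Evx1as KO replicates 2 and 3, those of chromosome 8 in EVX1 KO replicates 1 and 2, and every comparison was also fitted without these libraries.

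Gata4, Gata6 and Cxcr4 were lower in Evx1as KO than in WT, by 21.7-fold, 16.9-fold and 12.5-fold in mean FPKM (n = 3 against 2). Without WT replicate 1 these were 12.9-fold for Gata4 and 6.80-fold for Cxcr4, and without Evx1as KO replicate 2 the fold was 63.9 for Gata6. The same genes and Sox17 were higher in the libraries labelled EVX1 KO than in Evx1as KO. None of the 8 genes passed the test between EVX1 KO and WT. Neither Prdm1 nor Trh passed in any comparison, although all Evx1as KO libraries lay above WT for Trh. Calls rest on limma with Benjamini-Hochberg adjustment over 13188 genes at an adjusted p under 0.05, on the log2(FPKM + 1) scale, which understates the change of low genes. Of the 8 genes 6 entered the test, and Sox7 and Foxa1 lay under the filter of 1 FPKM in at least 2 libraries. Outside EVX1 KO, Sox17 reached 1 FPKM in WT replicate 1 only, so it entered through the EVX1 KO libraries where it was high. Its part in counts of genes higher in EVX1 KO is therefore no independent support. For Evx1as KO against WT, 3 of the 6 were called, all lower, where 24.5% of all tested genes were called, 11.4% lower and 13% higher. For EVX1 KO against WT, 0 of the 6 were called by limma, against 1.24% of all tested genes (0.554% lower and 0.69% higher), and 3 of the 6 (Gata4, Sox17 and Cxcr4, all higher) had an unadjusted p under 0.05. With array weights that let limma give each library its own precision, 2 of the 6 were called, Sox17 and Cxcr4. That fit called 1148 of the 13188 tested genes, against 164 in the main fit. For EVX1 KO against Evx1as KO, 4 of the 6 were called, all higher, against 22% of all tested genes, 11.3% lower and 10.7% higher. These RNA libraries come from whole cultures, so fewer cells of a type and less RNA per cell cannot be told apart.

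**Figure D1:**
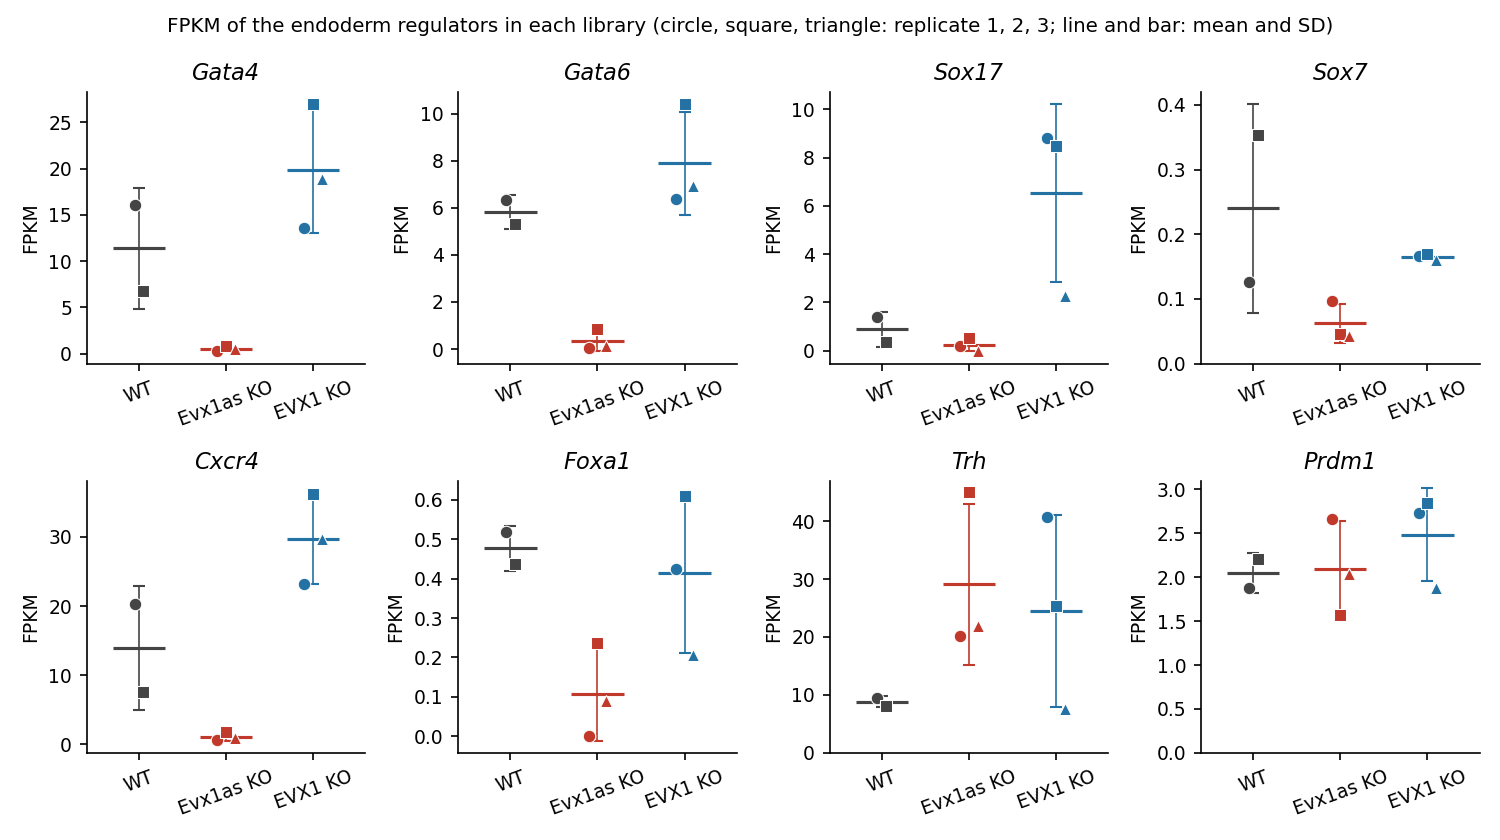
FPKM of each of the 8 genes (vertical axes, linear, 1 scale per gene) in the WT, Evx1as KO and EVX1 KO libraries, with 1 point per library, the group mean as a line and the SD as a bar. Gata4, Gata6 and Cxcr4 sit lowest in the 3 Evx1as KO libraries, while Trh is lowest in WT and in EVX1 KO replicate 3, and Prdm1 lies between 1.57 and 2.85 FPKM throughout.

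Gata4 (NM_008092, chromosome 14, 63817751 to 63864097, positions as deposited) stood at 16.0 and 6.74 FPKM in WT. It stood at 0.280, 0.794 and 0.496 in Evx1as KO replicates 1, 2 and 3, respectively, and at 13.6, 27.0 and 18.9 in EVX1 KO. All Evx1as KO libraries lay below both WT libraries, and WT replicate 1 lay within the range of EVX1 KO. Means were 11.4 ± 6.57 FPKM in WT (SD, n = 2), 0.524 ± 0.258 in Evx1as KO (n = 3) and 19.8 ± 6.73 in EVX1 KO (n = 3). Gata4 fell in Evx1as KO against WT with a log2 fold change of −2.93 ± 0.35 (standard error, adjusted p = 0.00149), which moved to −2.36 without WT replicate 1 and to −3.50 without WT replicate 2. Between EVX1 KO and WT the log2 difference was 0.81 ± 0.35 (95% interval 0.02 to 1.60, adjusted p = 0.228), and without WT replicate 2 it was 0.24. Gata4 was higher in EVX1 KO than in Evx1as KO by 3.74 ± 0.31 (log2, adjusted p = 3.18e-04). The order of its levels was thus EVX1 KO, WT, Evx1as KO, and the difference between the first pair of neighbours did not pass the test.

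Chromosome 14, which carries Gata4 and Sox7, had a median log2 deviation of 0.13 in Evx1as KO replicate 1 and of −0.36 and −0.34 in replicates 2 and 3, taken over genes whose mean reached 5 FPKM. Gata4 was lowest in Evx1as KO replicate 1, where the chromosome 14 median was not low. Without Evx1as KO replicates 2 and 3 the log2 fold change of Gata4 against WT was −3.16 (adjusted p = 0.0180), with the lone Evx1as KO library assumed to vary like the other groups. After each chromosome was centred on its own median, Gata4 still differed by −2.72 (adjusted p = 0.00224).

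**Figure D2:**
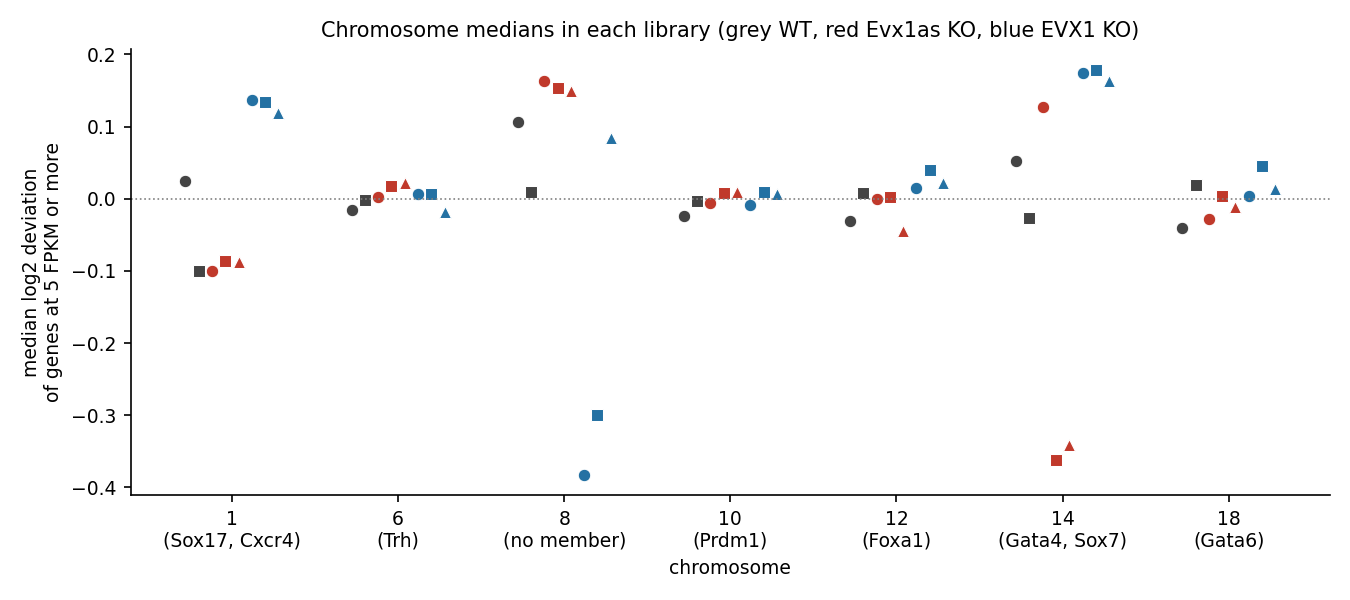
Median log2 deviation (vertical axis) of genes whose mean reached 5 FPKM from their mean over all libraries, for the chromosomes that carry the 8 genes and for chromosome 8, with 1 point per library (circle, square and triangle for replicates 1, 2 and 3). Chromosome 14, with Gata4 and Sox7, lies at −0.36 and −0.34 in Evx1as KO replicates 2 and 3 only, and chromosomes 6, 10, 12 and 18 stay within 0.05 of 0.

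Gata6 (NM_010258, chromosome 18, 11052507 to 11085633) gave 6.32 and 5.29 FPKM in WT, 0.0498, 0.847 and 0.132 in Evx1as KO and 6.37, 10.4 and 6.91 in EVX1 KO. Its 3 Evx1as KO libraries lay below both WT libraries, and all 3 EVX1 KO libraries lay above them, replicate 1 by only a little. Mean FPKM was 5.81 ± 0.728 in WT (SD, n = 2), 0.343 ± 0.438 in Evx1as KO (n = 3) and 7.89 ± 2.18 in EVX1 KO (n = 3). Gata6 fell in Evx1as KO by 2.39 ± 0.27 on the log2 scale (adjusted p = 0.00118). The difference of EVX1 KO from WT was 0.36 ± 0.27 (95% interval −0.25 to 0.97, adjusted p = 0.470), and that of EVX1 KO from Evx1as KO was 2.75 ± 0.24 (adjusted p = 3.24e-04). Evx1as KO replicate 2 held 17.0 times the Gata6 level of replicate 1, although both stood under 1 FPKM. An annotated transcript on the opposite strand, 1010001N08Rik, overlaps the span of Gata6. Whether their exons overlap was not checked, and the strand used in counting was not given in the sources used here. Reads in any shared stretch can therefore not be separated.

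Gata4 and Gata6 did not keep 1 ratio to each other. Gata4 over Gata6 was 2.53 and 1.27 in WT, 2.13, 2.59 and 2.74 in EVX1 KO and 5.63, 0.938 and 3.75 in Evx1as KO. Evx1as KO replicate 2 is the library in which Gata6 stood above Gata4 in FPKM. By the fragment counts given below, the Evx1as KO ratios rest on 6, 18 and 12 fragments of Gata4. They rest on 1, 18 and 3 fragments of Gata6, so replicate 2 held equal counts of both genes. Within WT, Gata4 differed 2.38-fold between the libraries and Gata6 only 1.19-fold. A spread as large as that of Gata4 between the WT libraries (log2 range 1.14) was seen in 0.940% of all tested genes.

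Sox17 (NM_011441, chromosome 1, 4481008 to 4486494) was already low in WT, unlike the GATA genes. It stood at 1.41 and 0.371 FPKM in WT, at 0.204, 0.529 and 0 in the Evx1as KO libraries, and at 8.81, 8.48 and 2.27 in EVX1 KO. Evx1as KO and WT overlapped, because Evx1as KO replicate 2 exceeded WT replicate 2, and all EVX1 KO libraries lay above the other 5. Means were 0.889 ± 0.733 FPKM in WT (SD, n = 2), 0.244 ± 0.267 in Evx1as KO (n = 3) and 6.52 ± 3.68 in EVX1 KO (n = 3). The difference of Evx1as KO from WT was −0.57 ± 0.47 on the log2 scale (95% interval −1.62 to 0.49, adjusted p = 0.402). EVX1 KO exceeded WT by 1.89 ± 0.47 (95% interval 0.84 to 2.94) with an adjusted p of 0.0790, and the size of the difference depended on single libraries. It was 2.41 without EVX1 KO replicate 3 (adjusted p = 0.0165), 1.48 without WT replicate 2 (adjusted p = 0.267) and 0.85 without EVX1 KO replicates 1 and 2 (adjusted p = 0.521). Sox17 was higher in EVX1 KO than in Evx1as KO by 2.46 ± 0.42 (adjusted p = 0.00488). That call was lost without Evx1as KO replicates 2 and 3 (2.48, adjusted p = 0.0731) and without EVX1 KO replicates 1 and 2 (1.42, adjusted p = 0.0782). Gm37587, annotated on the opposite strand, overlaps the span of Sox17, with the same limits on exons and strand as for Gata6.

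Relative to Gata4, Sox17 was at 0.0878 and 0.0550 in WT and at 0.648, 0.315 and 0.120 in EVX1 KO, so the ratio was higher in each EVX1 KO library than in either WT library. In Evx1as KO it was 0.726, 0.666 and 0, where both genes rest on few fragments. Whole steps between low FPKM values, taken as single fragments, put Sox17 at 32 and 10 fragments in WT and at 4, 11 and 0 in Evx1as KO. On the same basis the Evx1as KO libraries held 6, 18 and 12 fragments of Gata4, 1, 18 and 3 of Gata6, and 7, 20 and 12 of Cxcr4. Each step was chosen, within 6% of the size that transcript length predicts, to bring the values nearest to whole steps. The chosen steps lay within −1.5% to 3.7% of that size, and all values within 0.0057 of a whole step. The choice favours both, so neither is an independent check of the counts. Evx1as KO replicate 2 held the most fragments of all 4 genes within its group, by 18 against 1 and 3 for Gata6.

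Sox7 (NM_011446, chromosome 14, 64562542 to 64569569), the other SoxF gene, was near the limit of detection in every library. It was listed at 0.126 and 0.354 FPKM in WT, at 0.0973, 0.0460 and 0.0430 in the Evx1as KO libraries, and at 0.166, 0.170 and 0.161 in EVX1 KO. In fragments this is 3 and 10, then 2, 1 and 1, then 4, 4 and 4, with all values within 0.0051 of a whole step. Evx1as KO libraries lay below both other groups, and EVX1 KO lay between the WT libraries. The exact two-sided permutation test gave p = 0.2 for Evx1as KO against WT, p = 0.8 for EVX1 KO against WT and p = 0.1 for EVX1 KO against Evx1as KO, where 0.2, 0.2 and 0.1 are the smallest values these group sizes allow. None of these tests could have passed 0.05 with so few libraries, and the levels rest on 1 to 10 fragments. Chromosome 14, on which it lies, had a low median in Evx1as KO replicates 2 and 3.

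Foxa1 (NM_008259, chromosome 12, 58641618 to 58647108) also stayed under 1 FPKM throughout. It was listed at 0.517 and 0.436 FPKM in WT, at 0, 0.236 and 0.0883 in the Evx1as KO libraries, and at 0.426, 0.610 and 0.206 in EVX1 KO. These are 12 and 12 fragments in WT, 0, 5 and 2 in Evx1as KO and 10, 14 and 5 in EVX1 KO. Every Evx1as KO library lay below both WT libraries, while EVX1 KO spanned WT and its replicate 3 reached below Evx1as KO replicate 2. By the exact two-sided permutation test p was 0.2 for Evx1as KO against WT, the smallest possible, 0.8 for EVX1 KO against WT and 0.2 for EVX1 KO against Evx1as KO. Fitted with all genes and no filter, Foxa1 gave −0.42 (log2, adjusted p = 0.104) in Evx1as KO against WT and Sox7 gave −0.22 (adjusted p = 0.126).

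Cxcr4 (NM_009911, chromosome 1, 130484775 to 130488876) had the highest mean of the 8 genes in EVX1 KO. It stood at 20.3 and 7.61 FPKM in WT, at 0.644, 1.74 and 0.976 in the Evx1as KO libraries, and at 23.3, 36.3 and 29.7 in EVX1 KO. The 3 groups did not overlap, with Evx1as KO lowest and EVX1 KO highest. Mean FPKM was 13.96 ± 8.98 in WT (SD, n = 2), 1.12 ± 0.560 in Evx1as KO (n = 3) and 29.8 ± 6.50 in EVX1 KO (n = 3). Cxcr4 fell in Evx1as KO against WT by 2.71 ± 0.36 on the log2 scale (adjusted p = 0.00217), or by 2.06 without WT replicate 1 and by 3.36 without WT replicate 2. EVX1 KO exceeded WT by 1.16 ± 0.36 (95% interval 0.34 to 1.98, adjusted p = 0.126), or by 0.51 without WT replicate 2. It exceeded Evx1as KO by 3.87 ± 0.32 (adjusted p = 3.18e-04). WT replicate 1 held 2.67 times the Cxcr4 of WT replicate 2, a spread reached by 0.591% of tested genes, and the same library exceeded the other by over 2-fold for Gata4 and Sox17 too.

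Cxcr4 and Gata4 followed each other closely. Cxcr4 over Gata4 was 1.27 and 1.13 in WT, 2.30, 2.19 and 1.97 in Evx1as KO and 1.71, 1.35 and 1.57 in EVX1 KO, so the groups did not overlap in this ratio and Evx1as KO had the highest values. The ratio stayed between 1.13 and 2.30 over all libraries while Gata4 itself ranged from 0.280 to 27.0 FPKM. In Evx1as KO the ratios rest on few fragments, 7, 20 and 12 of Cxcr4 and 6, 18 and 12 of Gata4. Chromosome 1, which carries Cxcr4 and Sox17, had medians of 0.14, 0.13 and 0.12 in EVX1 KO, −0.10, −0.09 and −0.09 in Evx1as KO and 0.02 and −0.10 in WT. With chromosomes centred, Cxcr4 differed by −2.66 (adjusted p = 0.00162) in Evx1as KO against WT and by 0.99 (adjusted p = 0.148) in EVX1 KO against WT.

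Cxcl12, which encodes the ligand of CXCR4, moved the other way. It stood at 0.589 and 1.49 FPKM in WT, at 7.64, 6.55 and 7.59 in the Evx1as KO libraries, and at 0.641, 0.219 and 0.511 in EVX1 KO. Its level was highest in the 3 Evx1as KO libraries, those in which Cxcr4 was lowest, and WT and EVX1 KO overlapped. Cxcl12 rose in Evx1as KO against WT by 2.05 ± 0.22 (log2, adjusted p = 0.00102) and was lower in EVX1 KO than in Evx1as KO (log2 difference −2.51 ± 0.19, adjusted p = 2.45e-04). Both calls held in each of the 20 alternatives in which Cxcl12 was tested. Cxcr7 (Ackr3), the scavenger receptor for the same ligand, stood at 2.72 and 1.71 FPKM in WT, 1.05, 0.917 and 1.29 in Evx1as KO and 4.07, 4.17 and 1.81 in EVX1 KO. Its difference between EVX1 KO and Evx1as KO was 1.01 ± 0.25 (adjusted p = 0.0203), a call lost without any 1 Evx1as KO library or without EVX1 KO replicate 1 or 2.

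Trh (NM_009426, chromosome 6, 92192054 to 92194644) did not share the pattern of the GATA genes. It stood at 9.47 and 8.14 FPKM in WT, at 20.2, 45.0 and 22.0 in the Evx1as KO libraries, and at 40.7, 25.3 and 7.53 in EVX1 KO. All Evx1as KO libraries lay above WT, and EVX1 KO ranged from below WT in replicate 3 to near the top of Evx1as KO in replicate 1. Means were 8.80 ± 0.938 FPKM in WT (SD, n = 2), 29.1 ± 13.8 in Evx1as KO (n = 3) and 24.5 ± 16.6 in EVX1 KO (n = 3). Evx1as KO exceeded WT by 1.53 ± 0.58 (log2, 95% interval 0.22 to 2.84, adjusted p = 0.0854). The same difference passed when only these 2 groups were fitted (adjusted p = 0.0173) or when EVX1 KO replicate 1 or 3 was left out of the shared spread (adjusted p = 0.0473 and 0.0131), or replicates 1 and 2 together (0.0174). EVX1 KO differed from WT by 1.11 ± 0.58 (95% interval −0.20 to 2.42, adjusted p = 0.305), by 1.76 without EVX1 KO replicate 3 (adjusted p = 0.0374) and by −0.20 with replicate 3 as the lone EVX1 KO library. Between the knockouts the difference was −0.42 ± 0.52 (95% interval −1.59 to 0.75, adjusted p = 0.592), and it turned to 0.23 without EVX1 KO replicate 3. The 5.41-fold range of Trh within EVX1 KO was reached on the log2 scale by 0.152% of tested genes.

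Genes for the receptors and for breakdown of the hormone were at or near 0. Trhr, the main receptor gene, and Trhde, which encodes the enzyme that degrades the hormone, were listed at 0 in all 8 libraries, and Trhr2 did not exceed 0.130 FPKM. Of the 6 genes on this list 3 were tested, and 1 rose in Evx1as KO against WT: Pcsk2, a prohormone convertase gene, by 0.85 (log2, adjusted p = 0.0110). Over all tested genes, 13% were called higher there. Pcsk2 was called neither without WT replicate 1 nor without WT replicate 2 nor without Evx1as KO replicates 2 and 3. Pcsk1 and Pam, which also encode enzymes of peptide hormone maturation, passed in no comparison.

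Prdm1 (NM_007548, chromosome 10, 44156980 to 44178493) was the most even of the 8 genes. It stood at 1.88 and 2.20 FPKM in WT, at 2.66, 1.57 and 2.03 in the Evx1as KO libraries, and at 2.73, 2.85 and 1.87 in EVX1 KO, so that all 3 groups overlapped. Means were 2.04 ± 0.228 FPKM in WT (SD, n = 2), 2.09 ± 0.548 in Evx1as KO (n = 3) and 2.49 ± 0.533 in EVX1 KO (n = 3). The log2 difference from WT was 0.01 ± 0.20 in Evx1as KO (95% interval −0.43 to 0.45, adjusted p = 0.980) and 0.19 ± 0.20 in EVX1 KO (95% interval −0.26 to 0.63, adjusted p = 0.618). Between the knockouts it was 0.18 ± 0.17 (95% interval −0.22 to 0.57, adjusted p = 0.495). A change of Prdm1 by up to these bounds is not excluded by the intervals. Over all tested genes, 11.4% were called lower in Evx1as KO against WT and 10.7% higher in EVX1 KO against Evx1as KO. Among 8 genes that act with Prdm1 in germ cells 5 were tested, of which Ifitm3 and Nanos3 fell in Evx1as KO against WT, by 0.56 and 0.54 (log2, adjusted p = 0.0258 and 0.0435). Leaving out either WT library, Evx1as KO replicate 1 or Evx1as KO replicate 3 left both uncalled. In EVX1 KO against Evx1as KO 3 of the 5 were higher, Tfap2c, Nanos3 and Ifitm3, and none without EVX1 KO replicates 1 and 2.

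**Figure D3:**
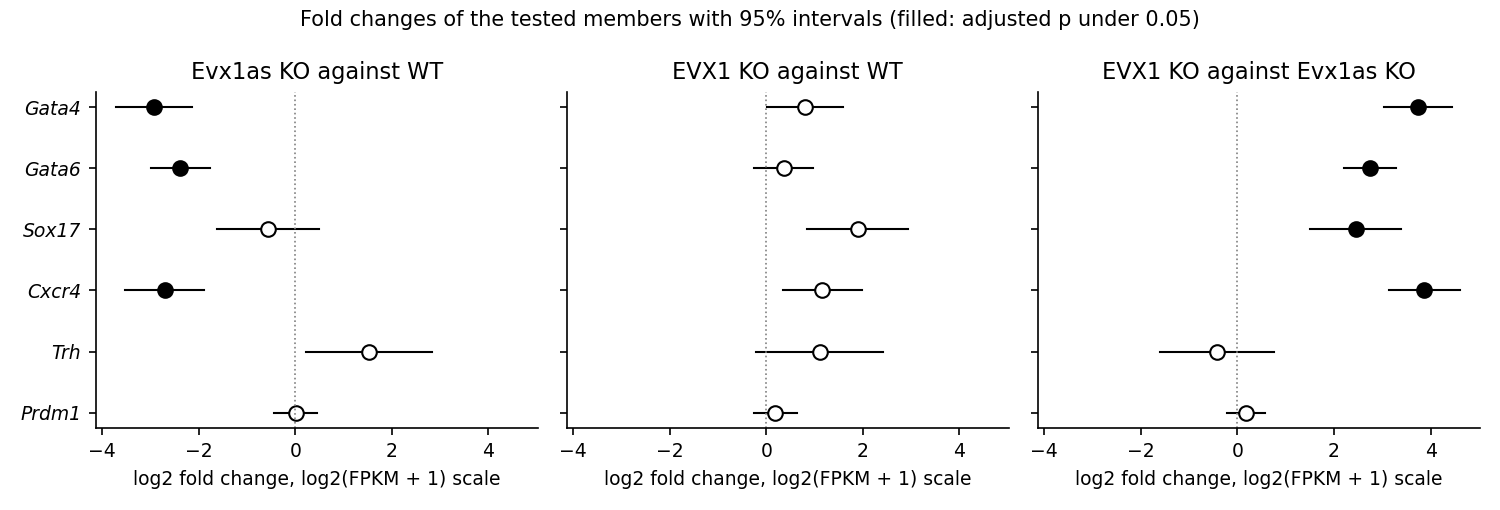
Log2 fold changes (horizontal axes, log2(FPKM + 1) scale) of the 6 tested genes with 95% intervals in the 3 comparisons, filled where the adjusted p was under 0.05. Gata4, Gata6 and Cxcr4 lie at −2.93, −2.39 and −2.71 in Evx1as KO against WT, all intervals for EVX1 KO against WT belong to open points, and Sox17 joins the called genes in EVX1 KO against Evx1as KO.

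Groups that do not overlap are a second description of the same values. Gata4, Gata6 and Cxcr4 (3 of 6) lay lower in every Evx1as KO library than in both WT libraries, where 26.2% of tested genes did so, and Trh (1 of 6) lay higher, where 29.5% did. Gata6, Sox17 and Cxcr4 (3 of 6) lay higher in every EVX1 KO library than in both WT libraries, where 21.2% of tested genes did. Gata4, Gata6, Sox17 and Cxcr4 (4 of 6) lay higher in every EVX1 KO than in every Evx1as KO library, where 20.1% did. In both of these counts Sox17 is a gene that passed the filter only through its EVX1 KO libraries. Both comparisons with WT rest on the same 2 control libraries.

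Within Evx1as KO, replicate 2 had the highest value of 6 of the 8 genes, namely Gata4, Gata6, Sox17, Cxcr4, Foxa1 and Trh. Within EVX1 KO, replicate 3 had the lowest value of Sox17, Sox7, Foxa1, Trh and Prdm1, whereas Gata4, Gata6 and Cxcr4 were lowest in replicate 1. The 3.88-fold range of Sox17 in EVX1 KO was reached on the log2 scale by 0.781% of tested genes. Relative depth in EVX1 KO replicates 1, 2 and 3 was 1.01, 0.989 and 1.04, and its part in these values was not tested.

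The pattern of each tested gene over the 8 libraries was compared with 11246 named genes by Pearson correlation of log2(FPKM + 1), given as a description because libraries of 1 group share their genotype. Prdm6 (r = 0.995), Cxcr4 (0.995) and Pik3r1 (0.993) were most like Gata4. Prdm6, a gene of the PR-domain family like Prdm1, stood at 4.44 and 1.99 FPKM in WT, was listed at 0 in all 3 Evx1as KO libraries and stood at 3.49, 5.63 and 3.95 in EVX1 KO. Tmem87a (0.994), Tor3a (0.993) and Rftn1 (0.993) were most like Gata6, and Gata4, Glul and Vstm2b (0.995, 0.990 and 0.990) most like Cxcr4. Sox17 was most like Trip10 (0.983), Pdzk1ip1 (0.983) and Zim1 (0.982). Pdzk1ip1 stood at 36.3, 25.4 and 11.8 FPKM in EVX1 KO against 9.37 and 7.18 in WT, with EVX1 KO replicate 3 lowest of its group, as for Sox17. Trh was most like Apobec3 (0.961), Psmb9 (0.955) and Dock6 (0.943). Psmb9, which encodes an immunoproteasome subunit, stood at 2.48 and 2.42 FPKM in WT, 5.29, 6.58 and 5.33 in Evx1as KO and 8.40, 5.04 and 2.99 in EVX1 KO. Like Trh it was high in EVX1 KO replicate 1. Psmb9 was lowest in WT, whereas Trh was lowest in EVX1 KO replicate 3. Prdm1 was most like Pcgf6 (0.946), Tmem206 (0.938) and Clic6 (0.929). Among the 8 genes themselves r was 0.983 for Gata4 with Gata6, 0.790 for Gata4 with Sox17 and −0.352 for Gata4 with Trh.

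Other genes of definitive endoderm and of the anterior streak were described from a list of 15, all of them tested. In Evx1as KO against WT 7 fell and 2 rose, where 11.4% of all tested genes were called lower and 13% higher. The median log2 fold change of the list was −0.58 against 0.02 over all tested genes. Without either 1 of the WT libraries 4 fell and 1 rose. Those that fell were Mixl1, Lhx1, Dkk1, Gsc, Eomes, Frzb and Tmprss2, and those that rose were Otx2 and Kit. The calls of Gsc, Eomes, Tmprss2 and Kit were lost without either WT library, and that of Kit also without Evx1as KO replicates 2 and 3. Gsc lost its call in 7 of 20 alternatives, among them leaving out Evx1as KO replicate 1 or 3. Lhx1, a LIM homeobox gene of the anterior streak and endoderm, stood at 22.7 and 20.7 FPKM in WT, at 0.175, 3.97 and 0.362 in the Evx1as KO libraries, and at 40.8, 47.3 and 43.6 in EVX1 KO. It fell by 3.50 (log2, adjusted p = 0.00268) in Evx1as KO, where replicate 2 again held the highest value, as for Gata4 and Gata6. Otx2, a homeobox gene of anterior epiblast and anterior endoderm, rose by 1.75 in Evx1as KO (adjusted p = 7.13e-04) and by 1.64 in EVX1 KO (adjusted p = 0.0124), both against the shared WT libraries. The call in EVX1 KO was lost without EVX1 KO replicate 2 and without replicates 1 and 2.

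Against WT, EVX1 KO had 2 of the 15 higher, Cer1 and Otx2, and 0 lower, where 0.69% and 0.554% of tested genes were called. The list median was 0.55 against 0.02 over all tested genes. The count of higher genes was 1 without either WT library or EVX1 KO replicate 1, 0 without EVX1 KO replicate 2 or without replicates 1 and 2, and 5 without EVX1 KO replicate 3 or Evx1as KO replicate 2. It was 4 without Evx1as KO replicates 2 and 3. Cer1, which encodes a secreted Nodal and BMP antagonist of anterior endoderm, stood at 0.498 and 0.489 FPKM in WT, at 0, 1.45 and 0.0851 in the Evx1as KO libraries, and at 9.84, 12.6 and 5.72 in EVX1 KO. Like Sox17 it was low in both other groups and lowest of its group in EVX1 KO replicate 3. Outside EVX1 KO it reached 1 FPKM in Evx1as KO replicate 2 only, so it too passed the filter through EVX1 KO. It rose by 2.74 ± 0.40 (log2, adjusted p = 0.0266), a call lost in 7 of 20 alternatives, among them leaving out either WT library or EVX1 KO replicate 1 or 2. Foxa2, the forkhead gene that precedes Foxa1, stood at 1.46 and 1.29 FPKM in WT, at 0.309, 3.86 and 0.750 in the Evx1as KO libraries, and at 11.8, 14.3 and 5.93 in EVX1 KO. Its difference between EVX1 KO and WT was 2.22 ± 0.51 (adjusted p = 0.0696). Between the knockouts, 10.7% of all tested genes were called higher in EVX1 KO and 11.3% lower. Against Evx1as KO, 10 of the 15 were higher in EVX1 KO and 0 were lower, with a median of 1.96 against −0.00 over all tested genes, and 6 were higher without EVX1 KO replicates 1 and 2.

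**Figure D4:**
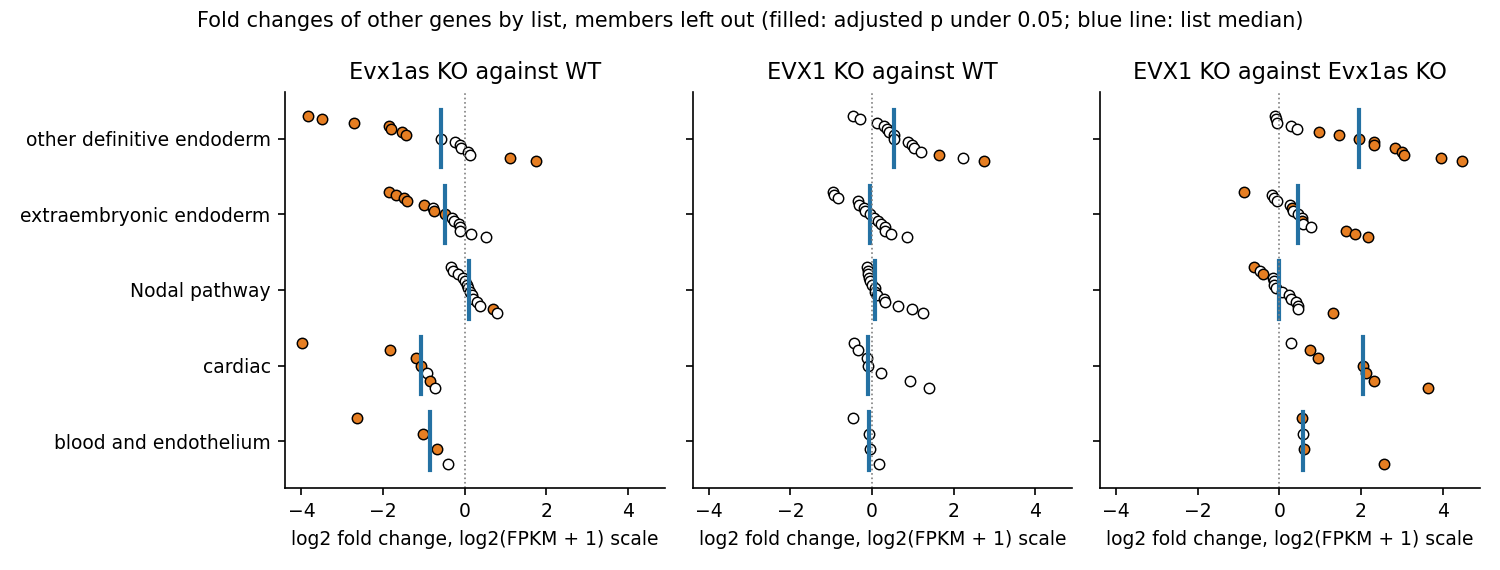
Log2 fold changes (horizontal axes, log2(FPKM + 1) scale) of the tested genes of 5 lists, with 1 point per gene, filled where the adjusted p was under 0.05, and a vertical line at the list median. The 8 endoderm regulators are left out, and the definitive endoderm list has medians of −0.58, 0.55 and 1.96 in the 3 comparisons.

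Gata4, Gata6, Sox7 and Sox17 also mark extraembryonic endoderm, so markers of that tissue were read beside them. Of 25 such genes 15 were tested. In Evx1as KO against WT 11.4% of all tested genes were called lower and 13% higher. Of the 15, 7 fell and 0 rose (2 fell without WT replicate 1), with a median of −0.48. Among them Pdgfra, a receptor gene of primitive endoderm and mesoderm, fell by 1.86 (log2, adjusted p = 0.00672, not called without WT replicate 1 or without Evx1as KO replicates 2 and 3), Cited1 by 1.68 (adjusted p = 7.39e-04) and Sparc, a matrix protein gene, by 0.75 (adjusted p = 9.28e-04). None of the 15 passed in EVX1 KO against WT, where 1.24% of all tested genes were called. In EVX1 KO against Evx1as KO 5 were higher and 1 lower, where 10.7% and 11.3% of all tested genes were called. The list median was 0.46 (8 higher and 0 lower without EVX1 KO replicate 3). Levels within the list were uneven, with 10 of the 25 genes under 1 FPKM in every library and 15 reaching it in at least 1. Apoa2 was listed at 0 in all libraries, Afp and Ttr did not exceed 0.256 FPKM and Hnf4a did not exceed 0.219. Other genes of visceral endoderm were well above this, with Lrp2 between 51.6 and 71.5 FPKM, Apoe between 240.0 and 616 and Dab2 between 6.65 and 14.6. Summed over the list, FPKM lay between 1170 and 1473 in WT, 1032 and 1154 in Evx1as KO and 1014 and 1184 in EVX1 KO. The part of extraembryonic endoderm in the levels of Gata4, Gata6 and Sox17 was not tested.

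Heart and blood precursors express Gata4, Gata6, Cxcr4 and Sox7 too. For the counts that follow, 11.4% of all tested genes were called lower in Evx1as KO against WT. The share called was 1.24% in EVX1 KO against WT, and 10.7% were called higher in EVX1 KO than in Evx1as KO. Of 7 tested cardiac genes 5 fell and 0 rose in Evx1as KO against WT (median −1.07), and 2 or 3 fell when either WT library or any 1 Evx1as KO library was left out. None passed in EVX1 KO against WT, and 6 were higher in EVX1 KO than in Evx1as KO (median 2.06), or 3 without EVX1 KO replicate 2 and 2 without Evx1as KO replicates 2 and 3. Mesp1, a regulator of cardiac mesoderm, fell by 3.97 (log2, adjusted p = 0.00247) and Hand1 by 1.84 (adjusted p = 0.00757, not called without WT replicate 1). Summed FPKM of the cardiac list was 69.9 to 72.4 in WT, 18.5 to 20.6 in Evx1as KO and 53.1 to 94.6 in EVX1 KO. This sum was lowest in Evx1as KO, as were Gata4 and Gata6. In EVX1 KO the sum spanned WT and Gata4 overlapped WT. Gata6 lay above WT there, in replicate 1 by only a little (6.37 against 6.32 FPKM in WT replicate 1). Of 4 tested genes of blood and endothelium Kdr, Gata2 and Runx1 fell in Evx1as KO against WT (median −0.85), and the call of Runx1 was lost when any 1 WT or Evx1as KO library was left out. The same 3 were higher in EVX1 KO than in Evx1as KO (median 0.59), or 1 of the list with Evx1as KO replicate 1, Evx1as KO replicate 3, EVX1 KO replicate 2 or EVX1 KO replicate 3 left out. The whole list summed to 10.4 to 16.6 FPKM in WT, 2.73 to 3.53 in Evx1as KO and 9.35 to 16.2 in EVX1 KO. The part of mesoderm in the values of Gata4, Gata6 and Cxcr4 was not tested.

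Relatives and cofactors of the GATA, SoxF and FoxA factors were counted as 1 list of 9, of which 6 were tested. Shares over all tested genes were 11.4% called lower in Evx1as KO against WT and 1.24% called in EVX1 KO against WT. Between the knockouts 10.7% were called higher in EVX1 KO. In Evx1as KO against WT Gata2, Gata3 and Zfpm1 fell and 0 rose, with a list median of −0.56. Gata3, a GATA gene of trophoblast and surface ectoderm, stood at 13.2 and 8.36 FPKM in WT, at 2.42, 4.58 and 3.59 in the Evx1as KO libraries, and at 6.11, 7.21 and 6.74 in EVX1 KO. Unlike Gata4, it was lower in each EVX1 KO library than in either WT library, a difference that did not pass the test. Zfpm1, which encodes the GATA cofactor FOG1, stood at 22.7 and 20.2 FPKM in WT, at 4.68, 8.54 and 7.33 in the Evx1as KO libraries, and at 12.7, 20.8 and 25.3 in EVX1 KO. Gata5 and Sox18 did not exceed 0.712 FPKM. In EVX1 KO against WT 0 of the 6 passed, and in EVX1 KO against Evx1as KO 4 were higher and 0 lower (median 0.68), or 2 with Evx1as KO replicate 1, Evx1as KO replicate 3, EVX1 KO replicate 2 or EVX1 KO replicate 3 left out, and 1 without EVX1 KO replicates 1 and 2. The call of Zfpm1 against WT was lost without WT replicate 1.

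The Nodal pathway, which drives these endoderm genes in the embryo, was described from 15 genes, of which 14 were tested. Evx1as KO against WT had 11.4% of all tested genes called lower and 13% higher. In Evx1as KO against WT Gdf3 rose by 0.69 (log2, adjusted p = 0.0353), a call lost without WT replicate 1 or any 1 Evx1as KO library, and 0 fell, with a median of 0.11. None of the 14 passed in EVX1 KO against WT, where 1.24% of all tested genes were called and the list median was 0.07. Nodal itself stood at 67.2 and 68.7 FPKM in WT, at 63.6, 56.9 and 48.2 in the Evx1as KO libraries, and at 87.3, 75.3 and 61.5 in EVX1 KO, so EVX1 KO spanned the WT values. The Nodal targets and antagonists Lefty1 and Lefty2 differed between EVX1 KO and WT by 1.25 ± 0.26 (adjusted p = 0.0581) and 0.99 ± 0.30 (adjusted p = 0.114). In EVX1 KO against Evx1as KO Lefty2 was higher by 1.32 (adjusted p = 0.00977), and Gdf3 and Smad3 were lower by 0.62 and 0.41 (log2 −0.62 and −0.41, adjusted p = 0.0380 and 0.0400). Gdf3 lost this call in 11 of 20 alternatives, among them leaving out any 1 library of either knockout, and Smad3 lost it in 8. Lefty2 lost its call without Evx1as KO replicates 2 and 3 and without EVX1 KO replicates 1 and 2, and in both of these fits 0 of the 14 were called.

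Lists for other fates were read in the same libraries. Over all tested genes, 11.4% were called lower and 13% higher in Evx1as KO against WT. Pluripotency genes (14 tested of 15) had 5 higher and 5 lower in Evx1as KO against WT with a median of −0.32 (3 and 3 without WT replicate 1, 4 and 3 without WT replicate 2, 3 and 5 without Evx1as KO replicates 2 and 3). They summed to 777 to 914 FPKM in WT, 1083 to 1218 in Evx1as KO and 849 to 899 in EVX1 KO. Trophoblast genes, which include Gata3, Hand1 and Tfap2c from the lists above, had 4 of 7 lower and 0 higher (median −1.33, 7 lower without Evx1as KO replicate 2), and later gut genes had 4 of 6 lower and 0 higher (median −1.06), namely Krt8, Krt18, Krt19 and Cldn4. Fibroblast or feeder genes had 4 of 9 lower and 1 higher (median −0.84), while neural genes had 2 of 4 higher and 0 lower (median 0.91). None of the tested genes of these 5 lists passed in EVX1 KO against WT, where only 1.24% of all tested genes were called. Whether these lists have a part in the values of Gata4, Gata6 and Cxcr4 was not tested.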

How the data were processed

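Gene expression was measured by RNA-seq of poly(A) RNA with a TruSeq Stranded kit, per the labels' protocols. The authors deposited 1 table of FPKM values for the 8 libraries. The submitters' processing notes name CASAVA, TopHat2 2.0.11 and the builds mm10 and mm9 without saying what each was used for. How FPKM was computed, with which annotation and strand, was not given in the sources used here. Of 22503 symbols matched to GENCODE on GRCm38, 11.5% overlapped in position, so coordinates are printed as in the deposited table and are not those of GRCm38. Groups came from the sample titles.

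The 13188 genes that reached 1 FPKM in 2 or more libraries entered limma 3.58.1 in R 4.3.3 on log2(FPKM + 1), with 3 group means, 1 shared spread with an intensity trend, and Benjamini-Hochberg adjustment over all of them. Genes under the filter were tested singly by exact two-sided permutation. Before fragment steps were sought, values were scaled by relative depth. For Gata4, Gata6, Sox17 and Cxcr4 the step was sought within 6% of the size predicted from transcript length, up to 40 steps. That prediction was set from the steps of Sox7 and Foxa1. For both genes the step started from a whole part of the lowest detected value, with distances of up to 0.15 from whole steps allowed. The fit was tested on simulated data with 200 changed genes of 13188: of the 2-fold changes, 68.7% came back in the simulation of Evx1as KO with WT, 83.6% in that of EVX1 KO with WT and 79.1% in that of both knockouts. Both simulations with WT used the same means, spreads and group sizes, so their difference reflects the random draw and does not rank the comparisons. The changed genes were drawn only from those averaging above about 2 FPKM, with normal noise, so the rates do not cover lower genes. Figures were drawn with matplotlib 3.10.9 in Python 3.11.15.

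The 8 genes and the 14 gene lists were chosen with earlier results of these data known. Named were the 8 genes, Evx1 and Evx1as, the 3 genes most like each tested member (predicted, unnamed and Rik genes passed over), and from each list up to 4 genes with the largest log2 fold change, or all called where 5 or fewer. Genes named beyond this rule, such as Gata5, Sox18, Trhr and Nodal, were chosen after their values were seen. Alternatives were other pseudocounts, filters, scaling, fits and left-out libraries. Leaving out the libraries with a low chromosome 14 or 8 was added after seeing the data.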

Additional observations from a re-analysis of the deposited data

How the results depend on the processing

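Over 20 alternatives, 337 of 357 values of the 6 tested genes kept their direction and side of the threshold. Gata4, Gata6 and Cxcr4 were called in every alternative for Evx1as KO against WT and for EVX1 KO against Evx1as KO. Sox17 lost its call between the knockouts in 2 (adjusted p = 0.0731 and 0.0782). Prdm1, never called, changed sign in Evx1as KO against WT with median-ratio scaling (−0.0111), with chromosomes centred (−0.00858), without WT replicate 1 (−0.0683) and without Evx1as KO replicate 1 (−0.122), in a range of −0.122 to 0.133 with 1 library left out. It also did so without EVX1 KO replicates 1 and 2 (−0.0807 against WT, −0.0889 between knockouts) and without Evx1as KO replicates 2 and 3 (−0.0834 between knockouts). Trh changed sign without EVX1 KO replicates 1 and 2 (−0.20 against WT) and without EVX1 KO replicate 3 (0.23 between knockouts, in a range of −0.91 to 0.23 with 1 library left out). For these the cause was not tested beyond the libraries left out.

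Of the 6 genes 0 were called in EVX1 KO against WT, 2 with array weights, and 0 to 2 with 1 library left out. All genes called numbered 3230 for Evx1as KO against WT, 1421 to 3414 with 1 library left out and 1208 without Evx1as KO replicates 2 and 3. For EVX1 KO against WT they numbered 164, and 28 with no filter, 219 with a filter of 5 FPKM, 27 with only the 2 groups fitted, 78 with no trend, 1148 with array weights and 4 to 634 with 1 library left out. They numbered 27 without Evx1as KO replicates 2 and 3 and 8 without EVX1 KO replicates 1 and 2. For EVX1 KO against Evx1as KO they numbered 2903, and 5552 with array weights, 1409 to 2666 with 1 library left out, 785 without Evx1as KO replicates 2 and 3 and 729 without EVX1 KO replicates 1 and 2.

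Replicate numbers shared across groups gave no sign of pairing. Same-numbered libraries had correlations of deviations from −0.0985 to 0.0759, and libraries of different number from −0.159 to 0.161. Deviations of the 2 WT libraries mirror each other, so these values cannot exclude a pairing. With the replicate number as a block, 28 genes were called in EVX1 KO against WT, 2575 in Evx1as KO against WT and 2564 between knockouts, and Trh passed in Evx1as KO against WT (1.93, adjusted p = 0.0326), so that 4 of the 6 genes were called there. The block changed no other call of the 6 genes. Few fragments limit Sox7, Foxa1 and, in Evx1as KO, Sox17, Gata4, Gata6 and Cxcr4. With 2 WT libraries the spread of Gata4 and Cxcr4 in WT is known poorly.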
